A study of Mus musculus with 9 samples.

Results

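The genes described here encode the proteins of the cytosolic ribosome, and the measurement was the ratio of their RNA between SJL/J and C57BL/6J mice in liver, brain and kidney. Members were chosen by symbol, as single gene symbols that start with Rpl or Rps and a digit, with Rplp0 to Rplp2 or with Rpsa, the ribosomal protein S6 kinases being left out. The rule found 73 genes, 46 with large subunit and 27 with small subunit symbols, of 15096 genes on the array with a single symbol. They were read by 81 probes, and the probes of a gene were averaged. Of the 73, 62 were core structural genes (39 of the large and 23 of the small subunit), 7 were paralogs of core genes, 2 carried pseudogene symbols (Rpl29-ps1 and Rpl30-ps2) and 2 bore a matching symbol without being a structural protein (Rps19bp1 and Rps23rg1). Rps4l, counted with the paralogs, is annotated as a transcribed pseudogene. No filter on low values was made, so all 73 were tested.

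On every array, RNA pooled from 5 male SJL/J mice carried Alexa Fluor 647 and RNA pooled from 5 male C57BL/6J mice carried Alexa Fluor 555, all 8 weeks old, and each labelling used 20 ug of the pool. Both are inbred strains, and the labels name no treatment. There were 3 arrays for liver, 3 for whole brain and 3 for kidney, and the series design describes those of a tissue as technical replicates of the same 2 pools, without a dye exchange. The p-values below therefore cover the spread between arrays that share their pools and not that between mice, and a dye effect particular to a probe could not be told apart from a strain difference. Values are log2 ratios, SJL/J over C57BL/6J, so a positive value is higher RNA in SJL/J and a value of 1 is a 2-fold difference. The direction is likely, not stated: it rests on the titles, which name SJL/J before C57BL/6J, on the dyes and on the usual red over green ratio. On 9 of 9 arrays the ratio was above 0 (0.15 to 1.06) for Nnt, a transhydrogenase gene of which C57BL/6J carries a deletion. A ratio gives no level, so levels of different genes could not be compared and the tissue labels could not be checked against tissue markers. In RNA of whole organs, fewer cells of a type and less RNA per cell cannot be told apart.

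A cytosolic ribosome is built from a large subunit, which forms peptide bonds, and a small subunit, which reads the mRNA. Each ribosomal protein is normally present in a single copy, apart from the acidic stalk proteins Rplp1 and Rplp2, which sit in pairs on Rplp0 and recruit elongation factors. Ribosomal protein mRNAs are among the most abundant in every tissue. They typically start at a C followed by a run of pyrimidines, the terminal oligopyrimidine tract, through which Larp1 and the mTOR pathway control their translation.

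The DNA around the annotated start is shown for some members that passed the test in a tissue. RefSeq promoter sequences (GRCm38.p6, 250 bases before to 50 after each start) were matched for 59 of the 73 members and 51 of the 62 core genes. They come from the C57BL/6J reference genome, and SJL/J sequence was not used here. Each line is the coding strand from 15 bases before the annotated start to 15 after it, with the longest run of C and T in capitals, wherever it lies. The capitals therefore need not be the tract of the RNA. In Rpl27, Rpl6 and Rplp0 they lie wholly before the annotated start, and in Rpl39, Rps4x and Rps26 they begin after it.
Rpl27, chr11:101442230-101442259, plus strand, lower in liver: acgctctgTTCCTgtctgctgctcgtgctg
Rpl39, chrX:37085208-37085237, minus strand, lower in liver: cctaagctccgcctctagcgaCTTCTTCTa
Rps4x, chrX:102189377-102189406, minus strand, lower in liver: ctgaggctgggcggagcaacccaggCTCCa
Rps24, chr14:24490663-24490692, plus strand, lower in liver: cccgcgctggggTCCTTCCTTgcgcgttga
Rpl6, chr5:121204486-121204515, plus strand, lower in liver: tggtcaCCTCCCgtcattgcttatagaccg
Rpl14, chr9:120571502-120571531, plus strand, higher in brain: gggcgggCCCTCTCTCTTCTCgctgagcgc
Rpl38, chr11:114668565-114668594, plus strand, higher in brain: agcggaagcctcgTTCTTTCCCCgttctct
Rplp0, chr5:115559452-115559481, plus strand, higher in kidney: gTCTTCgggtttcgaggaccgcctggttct
Rps26, chr10:128626492-128626521, minus strand, higher in kidney: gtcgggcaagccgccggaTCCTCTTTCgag
The run was 14 bases in Rpl14 and 4 in Rps4x. The lower members shown are liver calls and the higher ones brain or kidney calls, and a relation of run length to the ratios was not tested.

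A C/T run of at least 6 bases within 25 bases on either side of the start was found in 32 of the 51 core promoters (62.7%), against 43.9% of all 27025 promoters in the table. The median longest run was 7 bases in core genes and 5 in all. The sequence CCGGAAG, a form of the site bound by the ETS transcription factor family, was searched on both strands of the 300 bases and lay in 22 core promoters (43.1%), against 9.1% of all. The sequence GGGCGG, found in binding sites of Sp1, lay in 58.8% of core promoters and 35.9% of all, and TATAAA in 9.8% of core promoters and 14.2% of all. The match is shown in capitals for 3 members that passed in different tissues.
Rps18, chr17:33955719-33955755, minus strand, lower in liver: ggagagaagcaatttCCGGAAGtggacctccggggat
Rpl37, chr15:5116575-5116611, plus strand, higher in brain: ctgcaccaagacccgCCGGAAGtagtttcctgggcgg
Rps26, chr10:128626699-128626735, minus strand, higher in kidney: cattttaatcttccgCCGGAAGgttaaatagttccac
The match ended 16 bases before the start in Rpl37, 68 in Rps18 and 207 in Rps26.

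1 array stood apart. On brain replicate 3, 57 of the 62 core genes (91.9%) lay above both other brain arrays, against 41.2% of all genes. The gap between that array and the mean of brain replicates 1 and 2 had a median of 0.84 log2 units over core genes (0.78 in the large subunit, 0.84 in the small) and 0.03 over all genes. Over the 15023 genes that are not members, brain replicate 3 correlated with the other brain arrays at r = 0.36 and 0.42 and with the kidney arrays at 0.46 to 0.52, whereas brain replicates 1 and 2 correlated with each other at 0.73. Over the 62 core genes it correlated at 0.38 and 0.30 with the other brain arrays and at 0.10 to 0.32 with the kidney arrays. The median SD over the 3 brain arrays was 0.49 in core genes and 0.20 in all genes, while in liver it was 0.21 and 0.16 and in kidney 0.16 and 0.13. Since the fit pools the spread of all 9 arrays, the counts of members that passed in a tissue or differed between tissues are given with and without this array.

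The ribosomal protein genes leaned towards lower RNA in SJL/J in liver and towards higher RNA in SJL/J in kidney, by core medians below and above 0 on all 3 arrays, while the brain arrays lay on both sides of 0. These leans were small on some arrays, and brain replicate 1 was about as far below 0 as liver replicate 3. The median log2 ratio of the core genes was -0.40, -0.36 and -0.15 on liver replicates 1 to 3. It was -0.14, -0.00 and 0.69 on the brain arrays and 0.21, 0.12 and 0.10 on the kidney arrays. The median of all genes lay between -0.02 and 0.02 on each array, since the authors had made the 9 distributions equal. In both subunits the medians lay below 0 on all 3 liver arrays and above 0 on all 3 kidney arrays. Core large subunit genes had medians of -0.42, -0.36 and -0.19 in liver, -0.11, 0.03 and 0.71 in brain and 0.26, 0.15 and 0.14 in kidney. In core small subunit genes they were -0.38, -0.34 and -0.09 in liver, -0.14, -0.05 and 0.52 in brain and 0.17, 0.07 and 0.03 in kidney. The small subunit lean depended on probe position. With the median of each position in the blocks of 480 probe numbers removed, the median of its core means in liver was -0.054 in place of -0.251. In that setting 10 of these genes lay above 0 and 13 below, and the kidney median was 0.026 in place of 0.085. For the core large subunit the liver median was -0.168 in place of -0.285. The number of core genes above 0 was 7, 14 and 17 of 62 on the liver arrays, 20, 30 and 61 on the brain arrays and 47, 45 and 41 on the kidney arrays, where 47.5% to 52.8% of all genes lay above 0.

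**Figure D1:**
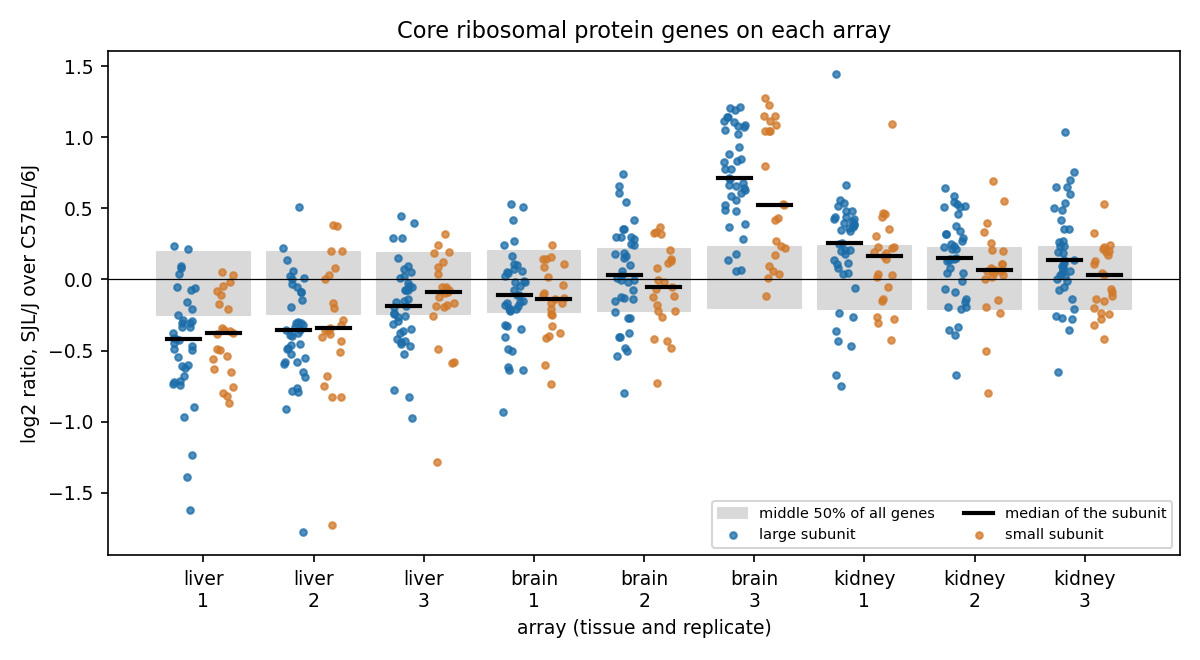
Log2 ratio, SJL/J over C57BL/6J, of the 62 core ribosomal protein genes on each of the 9 arrays, each point a gene, with a black bar at the median of each subunit and a grey band for the interquartile range of all genes. The liver medians lie below 0 on all 3 arrays, the kidney medians above 0 on all 3, and brain replicate 3 is the array with the highest medians.

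In liver, 13 of the 73 members (17.8%) were lower and 0 higher in SJL/J, against 14.4% of all genes lower and 10.1% higher (limma with 1 mean per tissue over 9 arrays, Benjamini-Hochberg adjustment over all genes, threshold 0.05). All 13 were core genes, 9 of the large and 4 of the small subunit. The lower share was thus close to that of all genes, and the difference lay in the absence of higher calls. At an unadjusted p under 0.05 (limma), 29 members were lower and 2 higher, but the shares of all genes at that threshold were not counted. Without brain replicate 3 the liver means are the same, but the shared spread is smaller: 33 members (45.2%) were then lower and 0 higher, against 18.2% and 12.7% of all genes, and the 13 were all among the 33. Fitted on the liver arrays alone, 23 members (31.5%) were lower and 1 (1.4%) higher, against 14.8% and 10.5% of all genes. In sign, 39 of 62 core genes lay below 0 on all 3 liver arrays, a larger share than the 32.5% of all genes. Above 0 on all 3 lay 2 of 62, a smaller share than the 27.8% of all genes.

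The largest liver differences were in Rpl27 and Rps20. Rpl27, a large subunit protein, had ratios of -0.90, -1.78 and -0.97 on the liver arrays, a mean of -1.22 ± 0.49 (SD, n = 3 arrays; limma adjusted p = 3.78e-04), or RNA 2.32-fold higher in C57BL/6J. Rps20, a small subunit protein that is mutated in some families with colorectal cancer in humans, had -0.56, -1.72 and -1.28, a mean of -1.19 ± 0.59 (limma adjusted p = 6.09e-04). These were the members that differed by at least 2-fold in liver. In both, liver replicate 2 was the lowest array, and all 3 liver values lay below every brain and kidney value.

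Rpl39, one of the smallest ribosomal proteins, which lines the tunnel through which the nascent chain leaves, had -1.23, -0.78 and -0.83 in liver (mean -0.95 ± 0.25, limma adjusted p = 0.00415). The X-linked small subunit gene Rps4x had -0.87, -0.83 and -0.59 (mean -0.76 ± 0.15, limma adjusted p = 0.00465). For Rps4x the brain values were -0.60, -0.73 and 0.23 and the kidney values 0.23, 0.26 and 0.19, so that brain replicates 1 and 2 lay among the liver values and brain replicate 3 among the kidney values. Rpl27, Rps20, Rpl39 and Rps4x passed in liver in each of the 9 fits that left out 1 array.

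The other 9 liver members lay between -0.67 and -0.29. Rpl9 had -0.74, -0.91 and -0.35 in liver (mean -0.67 ± 0.29, limma adjusted p = 0.0445). Rps24, mutated in Diamond-Blackfan anaemia in humans, had -0.65, -0.68 and -0.58 (mean -0.64 ± 0.05, limma adjusted p = 0.0209). Its only probe has a number that is a multiple of 8, a class of probe numbers with low ratios described below. With the medians of lines and columns of probe numbers removed, its liver mean was -0.067 and did not pass. Rpl6, Rpl7, Rpl11, Rps18, Rpl21, Rpl34 and Rpl23 were the remaining 7, with limma adjusted p between 0.0115 and 0.0489. Of these, Rpl21, Rpl34 and Rpl7 were likewise read only by probes at multiples of 8. With line and column medians removed, their liver means were -0.055, -0.254 and -0.466. Rpl11 binds 5S rRNA and, when free of the ribosome, the p53 regulator Mdm2. Each of the 9 lost its call when at least 1 liver array was left out, with adjusted p up to 0.242. At the upper end, Rps23rg1, a retroposed relative of Rps23, had 0.53, 0.34 and 0.20 (mean 0.36 ± 0.17, limma adjusted p = 0.111), and the muscle paralog Rpl3l had 0.04, 0.25 and 0.63 (mean 0.31 ± 0.30, limma adjusted p = 0.0793), neither passing.

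**Figure D2:**
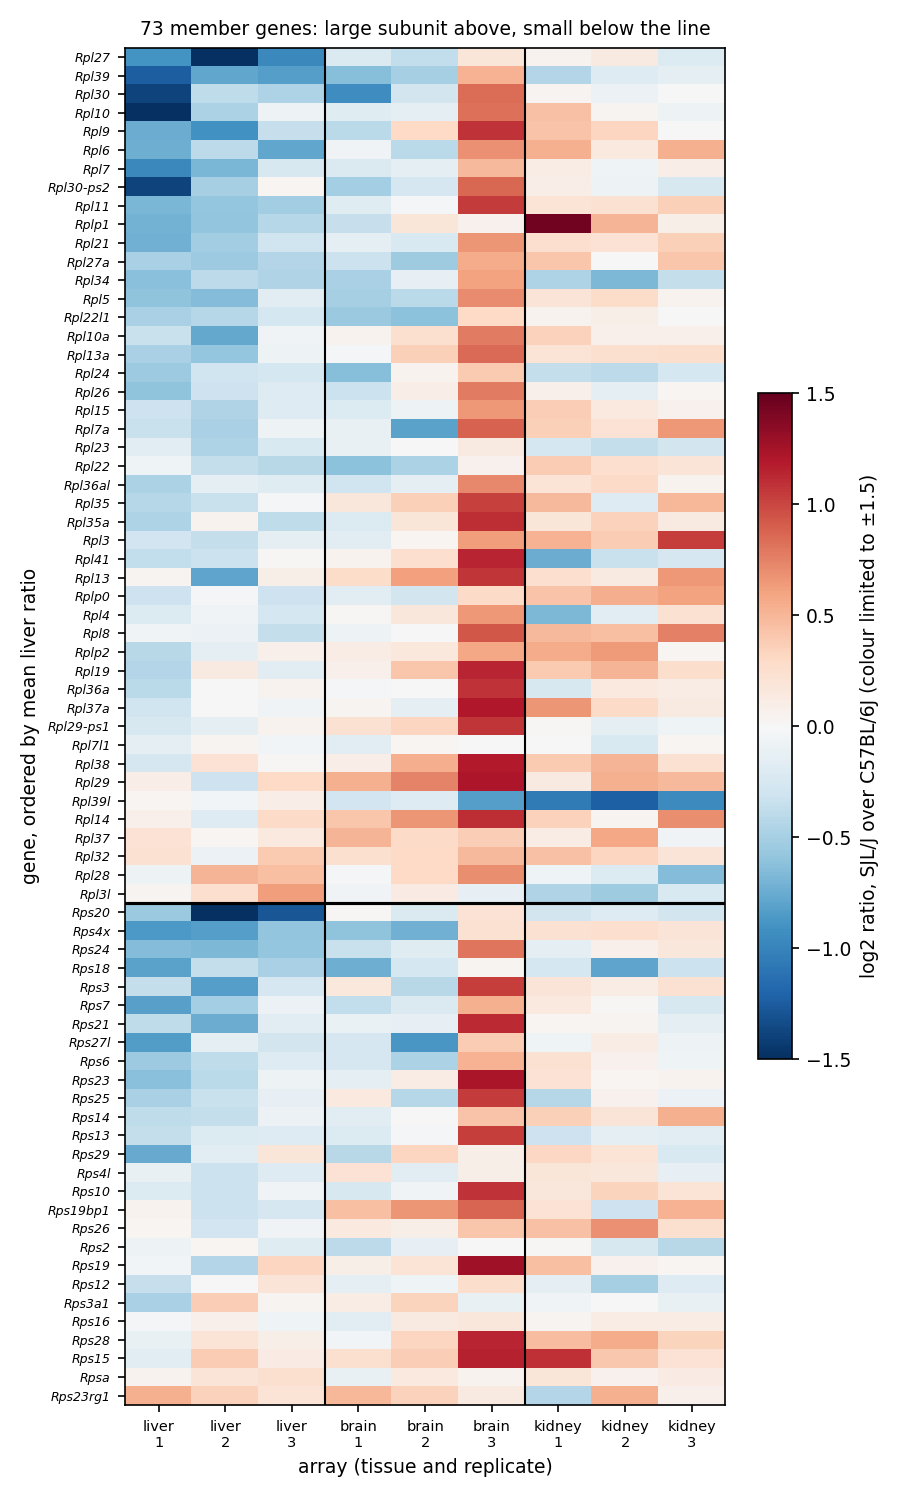
Log2 ratio, SJL/J over C57BL/6J, of each member (rows) on each array (columns, liver, brain and kidney from left to right), with the colour scale given beside it and larger values shown at its ends. Liver columns are mostly below 0 and kidney columns mostly above, and brain replicate 3 is above 0 for 69 of the 73 members. Within the kidney columns Rpl39l (-1.06, -1.23 and -0.95) is the lowest member.

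In brain, 8 members (11.0%) were higher and 1 lower in SJL/J, against 7.55% of all genes higher and 9.61% lower. Without brain replicate 3, 3 (4.1%) were higher and 7 (9.6%) lower, against 9.55% and 11.2% of all genes, so the balance of calls turned with that array. Of the 8 higher calls, 3 held without it: Rpl29, Rpl14 and Rps19bp1. On the brain arrays alone 2 members (2.7%) passed, both higher, against 0.855% of all genes higher and 2.21% lower.

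Rpl29, whose loss slows growth in mice, had ratios of 0.53, 0.74 and 1.21 in brain (mean 0.83 ± 0.35, limma adjusted p = 0.00414). Rpl14, another large subunit protein, had 0.42, 0.66 and 1.11 (mean 0.73 ± 0.35, limma adjusted p = 0.00898). Both were above 0 on every brain array and passed in each fit that left out 1 array; their means were 0.64 and 0.54 without brain replicate 3. Rps19bp1, a partner of Rps19 also known as an activator of the deacetylase Sirt1, had 0.45, 0.66 and 0.87 (mean 0.66 ± 0.21, limma adjusted p = 0.0118) and lost its call without brain replicate 2.

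Rpl38, known from the tail short mouse mutant for its part in translating Hox mRNAs, had 0.10, 0.54 and 1.19 in brain (mean 0.61 ± 0.55, limma adjusted p = 0.0295). Rpl13 had 0.27, 0.61 and 1.07 (mean 0.65 ± 0.40, limma adjusted p = 0.0346), and Rpl29-ps1, a pseudogene symbol whose probe may also read Rpl29 RNA, had 0.22, 0.32 and 1.07 (mean 0.54 ± 0.46, limma adjusted p = 0.0264). These 3 had their highest value on brain replicate 3 and did not pass without it or without brain replicate 2. Rpl37 was the exception, with its highest value on brain replicate 1: it had 0.51, 0.28 and 0.37 (mean 0.39 ± 0.12, limma adjusted p = 0.044), and lost its call in 7 of the 9 fits that left out 1 array.

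Without brain replicate 3 the members lower in brain were Rps4x (-0.66), Rpl22l1 (-0.59), Rpl39 (-0.57), Rps27l (-0.56), Rpl22 (-0.55), Rpl5 (-0.45) and Rpl27a (-0.43), each a mean of 2 arrays. Rpl22, required for the development of alpha-beta T cells in mice, had -0.62, -0.48 and 0.06 on the 3 brain arrays. Rps4x and Rpl39 are among the members that passed as lower in liver. On brain replicates 1 and 2 alone, the core median was -0.08.

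In kidney, 8 members (11.0%) were higher and 5 (6.8%) lower in SJL/J, against 13.5% and 13.9% of all genes. Neither share exceeded that of all genes in this fit of all arrays. Of the core genes 8 were higher and 3 lower. Without brain replicate 3, 19 members (26.0%) were higher and 6 (8.2%) lower, against 17.3% and 16.8% of all genes. The 8 higher calls were all among the 19. On the kidney arrays alone the counts were 18 (24.7%) and 8 (11.0%), against 17.3% and 18.3% of all genes. In both of these fits the higher share thus exceeded that of all genes and the lower share did not. The median of the 62 core means was 0.18, against 0.03 over all genes. Above 0 on all 3 kidney arrays lay 34 of 62 core genes, a larger share than the 35.3% of all genes.

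Rplp0, the base of the ribosomal stalk, had ratios of 0.42, 0.54 and 0.60 in kidney (mean 0.52 ± 0.09, limma adjusted p = 0.0069), and its call was lost only without kidney replicate 3, at an adjusted p of 0.0505 (0.00157 to 0.0505 over the fits that left out 1 array). Rplp1 had 1.45, 0.52 and 0.09 (mean 0.68 ± 0.69, limma adjusted p = 0.0276), with kidney replicate 1 far above the others, and a mean of 0.30 without it that did not pass; it did not pass without kidney replicate 2 either. The third stalk gene, Rplp2, had 0.56, 0.64 and 0.03 and did not pass (limma adjusted p = 0.0537). With the medians of lines of 24 consecutive probe numbers and of columns removed, the kidney means of Rplp0 and Rplp1 were 0.23 and 0.34, and neither passed.

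Rpl3, which reaches towards the peptidyl transferase centre, had 0.52, 0.38 and 1.04 in kidney (mean 0.64 ± 0.35, limma adjusted p = 0.0111), and did not pass without kidney replicate 3. Rpl8, which also lies near that centre, had 0.48, 0.46 and 0.75 (mean 0.56 ± 0.16, limma adjusted p = 0.0282). Rps15, a small subunit head protein, had 1.09, 0.40 and 0.22 (mean 0.57 ± 0.46, limma adjusted p = 0.0488), with kidney replicate 1 far above the others. All kidney values of these 3 genes lay above 0, and each of them lost its call without at least 1 kidney array. Rps15 passed in 2 of the 9 fits that left out 1 array, with limma adjusted p up to 0.352. With line and column medians removed, Rpl3 and Rpl8 had means of 0.36 and 0.15 and did not pass, whereas Rps15 had 0.58 and passed.

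Rps26, which contacts the mRNA at the exit channel, had 0.44, 0.69 and 0.24 in kidney (mean 0.46 ± 0.23, limma adjusted p = 0.0117), and Rps14 had 0.35, 0.20 and 0.53 (mean 0.36 ± 0.17, limma adjusted p = 0.0471). Both lost their call without kidney replicate 1 and without kidney replicate 2. Rps26 passed in 7 of the 9 fits that left out 1 array, and Rps14 in 2, with limma adjusted p up to 0.247. With line and column medians removed, Rps26 had 0.20 and did not pass, and Rps14 had 0.44 and passed. The only probes of Rps14 and Rps15 have numbers that are multiples of 8, a class with low ratios described below. Removing column medians also removes the offset of that class. The lower members besides Rpl39l, described with the paralogs, were Rpl34, Rps18, Rpl3l and Rpl23, at -0.50 to -0.30, and all 4 lost their call without at least 1 kidney array, with adjusted p up to 0.288. With line and column medians removed, Rpl3l had -0.42 and passed, and Rpl34 (-0.02), Rps18 (-0.13) and Rpl23 (-0.01) did not.

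On all arrays 5 members passed in more than 1 tissue, and 14 did without brain replicate 3, with 3 of the 5 among them. The share of all genes that passed in more than 1 tissue was not counted, so these counts have no baseline. Rpl32 was higher in brain (0.25, 0.30 and 0.49, limma adjusted p = 0.048) and kidney (0.44, 0.32 and 0.19, limma adjusted p = 0.0476). Rpl34 was lower in liver (-0.62, -0.40 and -0.45, limma adjusted p = 0.0489) and kidney (-0.47, -0.67 and -0.36, limma adjusted p = 0.0425). Rps18 was lower in liver (-0.80, -0.36 and -0.49, limma adjusted p = 0.0221) and kidney (-0.27, -0.80 and -0.32, limma adjusted p = 0.0435), though both calls depended on the probe. Without its probe at a multiple of 8, the liver mean was -0.42 (limma adjusted p = 0.188) and the kidney mean 0.27 (limma adjusted p = 0.39). In kidney its 2 probes did not overlap.
Rpl23, which lies at the face between the subunits, was lower in liver (-0.16, -0.46 and -0.23, limma adjusted p = 0.0421) and kidney (-0.27, -0.36 and -0.28, limma adjusted p = 0.0312). The kidney probes of Rpl23 did not overlap either: the probe at a multiple of 8 averaged -0.47 and the other -0.13, which alone did not pass. With line and column medians removed, Rpl32 had means of 0.11 in brain and 0.06 in kidney and passed in neither. Rpl39l was lower in brain and kidney. Apart from Rpl39l in kidney, each of these calls was lost in at least 2 of the fits that left out 1 array, with adjusted p up to 0.288. For a ratio shared by the 3 tissues, tested on 3 tissue means with limma, 0 members passed, against 0.709% of all genes. An unadjusted p under 0.05 was found in 7 of the 73 members, a smaller share than the 15.9% of all genes.

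Between liver and kidney, 15 of the 73 members differed and 58 did not pass. All 3 liver arrays lay below all 3 kidney arrays for 40 of the 73 members and 37 of the 62 core genes, larger shares than the 25.3% of all genes. Kidney lay below liver for 2 of the 73 members, a smaller share than the 21.4% of all genes. By limma, the liver ratio was lower in 13 members (17.8%) and higher in 2 (2.7%), against 11.0% and 8.52% of all genes. Without brain replicate 3 these were 32 (43.8%) and 3 (4.1%), against 15.5% and 11.7%. The 2 higher members, Rpl39l and Rpl3l, were paralogs.

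Rplp1 had the lowest difference, liver minus kidney, of -1.26, with liver values of -0.71, -0.60 and -0.43 against the kidney values given above (limma adjusted p = 0.0123). Rpl27 differed by -1.21 (limma adjusted p = 0.00568), with kidney values of 0.05, 0.13 and -0.21, and Rpl6 by -1.04 (limma adjusted p = 0.0144), with liver values of -0.73, -0.39 and -0.78 and kidney values of 0.53, 0.15 and 0.54. For all of these genes the groups did not overlap. Rps4x differed by -0.98, Rps20 by -0.94, Rpl3 by -0.90 and Rplp0 by -0.74, and Rpl11, Rpl21, Rpl27a, Rpl7, Rps14 and Rps26 by -0.86 to -0.56, with limma adjusted p between 0.0103 and 0.048. Rplp1, Rpl27, Rps4x and Rplp0 passed in each fit that left out 1 array. The others lost the call without at least 1 liver or kidney array, with adjusted p up to 0.163.

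**Figure D3:**
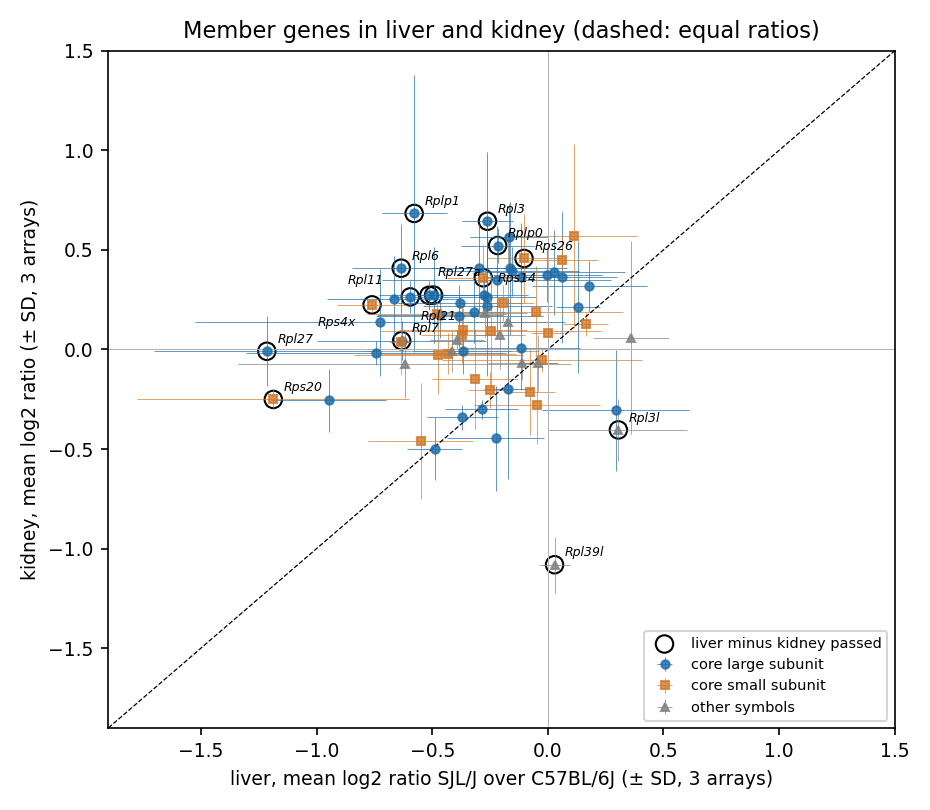
Mean log2 ratio, SJL/J over C57BL/6J, of each member in liver (x axis) and kidney (y axis), with bars for the SD over 3 arrays, and rings on the 15 members whose ratio differed between the 2 tissues. Most members lie above the line of equal ratios, and the paralogs Rpl39l and Rpl3l are the ringed genes below it.

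Liver minus brain was lower in 6 members (8.2%) and higher in 0, against 6.0% and 5.61% of all genes. At an unadjusted p under 0.05 (limma), 28 were lower and 1 higher. For the contrasts in this paragraph, shares of all genes at the unadjusted threshold were not counted. The liver arrays all lay below the brain arrays for 21 of 62 core genes, a larger share than the 16.2% of all genes. They lay below brain replicates 1 and 2 likewise for 21 of 62, a larger share than the 24.1% of all genes. Rps20 (-1.19, limma adjusted p = 0.0107) and Rpl27 (-1.08, limma adjusted p = 0.0135) passed in each fit that left out 1 array. The other 4, Rps19bp1, Rpl29, Rpl13a and Rpl10a at -0.84 to -0.74, did not pass without brain replicate 3. In that fit 3 members (4.1%) in all were lower and 0 higher, against 7.19% and 6.05% of all genes. At an unadjusted p under 0.05 (limma) they were 17 and 0. Brain minus kidney was higher in 1 member (1.4%), Rpl39l, and lower in 0, against 2.5% and 2.97% of all genes, with 7 and 4 at an unadjusted p under 0.05 (limma). The call of Rpl39l, a difference of 0.65 (limma adjusted p = 0.0496), held in 1 of the 9 fits that left out 1 array, with adjusted p up to 0.176. Without brain replicate 3, brain minus kidney was lower in 10 members (13.7%) and higher in 2 (2.7%), against 7.83% and 7.53% of all genes. By the moderated F-test over the 3 tissues, 17 of the 73 members passed, a share close to the 22.1% of all genes. Without brain replicate 3, 29 of the 73 passed, a larger share than the 32.7% of all genes.

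2 of the 7 paralogs, Rpl39l and Rpl3l, passed in a tissue. Rpl39l, a testis-enriched copy of Rpl39, had -1.06, -1.23 and -0.95 in kidney (mean -1.08 ± 0.14, limma adjusted p = 1.11e-04), where Rpl39 had -0.44, -0.20 and -0.14. In brain Rpl39l had -0.28, -0.20 and -0.82 (limma adjusted p = 0.0299, not passing without brain replicate 1 or 3) and in liver 0.03, -0.04 and 0.09, where Rpl39 was lower. Its only probe has a number that is a multiple of 8, a class of probe numbers with low ratios described below, and its kidney call held in each fit that left out 1 array. With line and column medians removed its mean was -0.46 in kidney, where it passed, and -0.25 in brain, where it did not.
Rpl3l, which takes the place of Rpl3 in striated muscle, had -0.45, -0.53 and -0.23 in kidney (mean -0.40 ± 0.16, limma adjusted p = 0.0253, not passing without kidney replicate 1 or 2), where Rpl3 was higher. Its difference between liver and kidney was 0.71 (limma adjusted p = 0.0142), opposite in sign to the -0.90 of Rpl3. The difference between paralog and parent was not tested. Rpl22l1 had -0.49, -0.43 and -0.27 in liver and 0.06, 0.09 and -0.00 in kidney, beside -0.06, -0.35 and -0.42 in liver and 0.38, 0.25 and 0.19 in kidney for Rpl22. Rpl7l1, Rpl36al, Rps4l and Rps27l, the last a target of p53, passed in no tissue in the fit of all arrays, with mean ratios between -0.42 and 0.18. Ribosomal protein genes have many processed pseudogenes and close copies, and reading of one copy's RNA by another's probe was not tested.

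Probe and place on the array mattered for some members. Of the 8 members with 2 probes, the probes did not overlap in 2 genes in liver, 3 in brain and 5 in kidney. For Rps18 in kidney, 1 probe averaged -1.19 ± 0.09 and the other 0.27 ± 0.50, and for Rpl27a in kidney they averaged 0.74 ± 0.29 and -0.20 ± 0.20 (SD, n = 3 arrays). In liver the probes of Rpsa averaged 0.60 ± 0.12 and -0.27 ± 0.08. Of the 81 member probes, 17 had numbers that are multiples of 8, where the median ratio of all probes was -0.23 against 0.04 at other numbers, and 39 lay within 4 numbers of another member probe. With line and column medians removed, the median of the large subunit in liver was -0.16 in place of -0.31. Rpl27, Rps20, Rpl39, Rps4x and Rpl7 then still passed in liver, and Rpl9, Rps24, Rpl6, Rpl11, Rps18, Rpl21, Rpl34 and Rpl23 did not. The setting also made new liver calls. Rpsa (0.29, limma adjusted p = 0.0239) and Rpl7l1 (0.27, limma adjusted p = 0.0477) passed as higher, and Rpl29-ps1 and Rps4l as lower. In kidney Rps15, Rps14, Rpl39l and Rpl3l still passed and the other 9 did not, and in brain Rpl29, Rpl14, Rpl13, Rpl38 and Rps19bp1 still passed and Rpl37, Rpl32, Rpl29-ps1 and Rpl39l did not. With the new calls, 9 members were higher and 2 lower in kidney, and 11 higher and 1 lower in brain. Rpl21, Rpl26 and Rps24 were new higher calls in both, and Rpl29 was new in kidney at 0.98 (limma adjusted p = 0.00343). All of these, and Rps14, Rps15, Rpl38 and Rpl39l, were read only by probes at multiples of 8. Such numbers fill whole columns, so this setting also removes their shared offset. Of the 9 higher kidney calls in this setting, Rps28 alone was read by a probe at another number. Shares over all genes were not counted in this setting.

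Other parts of the translation machinery were read beside the ribosome. Of 57 translation initiation and elongation factors, 15 were lower and 2 higher in liver (median -0.18), 5 higher and 3 lower in brain (median -0.03) and 7 higher and 5 lower in kidney (median 0.06). Eif2s2, a subunit of the factor that brings the initiator tRNA, had -1.02 ± 0.09 in liver (limma adjusted p = 7.87e-05). Eef2, the translocation factor, was higher in kidney at 0.57 ± 0.01 (limma adjusted p = 0.0016). Of 72 mitochondrial ribosomal proteins, 11 were lower and 1 higher in liver (median -0.13), 5 higher and 1 lower in brain (median 0.05) and 14 higher and 4 lower in kidney (median 0.11).
The medians over all genes were -0.02 in liver, 0.01 in brain and 0.03 in kidney, and the background shares are those given above.

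Of 17 other mRNAs with a terminal oligopyrimidine tract, 5 were lower and 1 higher in liver (median -0.20), 2 higher in brain and 3 higher and 1 lower in kidney. Naca, a chaperone of nascent chains, had -1.08 ± 0.40 in liver (limma adjusted p = 0.00131), and Npm1, a nucleolar assembly protein, had -0.59 ± 0.28 (limma adjusted p = 0.00299). Of 16 regulators of ribosomal protein synthesis, 2 were lower and 1 higher in liver and 2 higher in kidney, and the others did not pass there. These shares lay near or below the 14.4% lower and 10.1% higher of all genes in liver and the 13.5% higher in kidney. Named from this list by low p, Larp1, which binds the tract and holds back its translation, had -0.91 ± 0.06 in liver (limma adjusted p = 6.08e-04). Mtor, the kinase upstream of it, had 0.64 ± 0.25 in kidney (limma adjusted p = 0.00318). A link of either to the ribosomal protein ratios was not tested. Of 44 measured ribosome assembly factors, 8 were lower and 3 higher in liver (median -0.08), 7 higher and 4 lower in brain (median 0.08) and 7 higher and 3 lower in kidney (median -0.01). Of 14 measured RNA polymerase I genes, 1 was lower and 1 higher in liver, 1 higher in brain and 3 higher and 3 lower in kidney.

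2 lists of other abundant housekeeping genes shared the liver lean and the rise on brain replicate 3. Of 76 genes of the respiratory chain and ATP synthase, 32 were lower and 1 higher in liver (median -0.44), and of 34 genes of the constitutive proteasome, 13 were lower and 2 higher (median -0.33), beside the core ribosomal median of -0.28. Brain replicate 3 exceeded the mean of the other brain arrays by a median of 0.61 in the respiratory chain and 0.43 in the proteasome, beside 0.84 in core ribosomal genes. The gap was 0.24 in translation factors, 0.22 in mitochondrial ribosomal proteins and 0.00 in ribosome assembly factors.
For markers of other cell types, median ratios over the 9 arrays lay between -0.09 and 0.09 for 10 lymphocyte markers, -0.12 and 0.39 for 7 erythroid markers, -0.14 and 0.09 for 12 proliferation markers and -0.04 and 0.16 for 12 macrophage markers. Single markers went both ways: in liver 1 lymphocyte, 3 erythroid, 1 proliferation and 2 macrophage markers were higher and 1 erythroid marker was lower, in brain 1 lymphocyte and 1 erythroid marker were higher and 1 lymphocyte, 1 erythroid, 2 proliferation and 1 macrophage markers lower, and in kidney 2 lymphocyte, 1 erythroid and 3 macrophage markers were higher and 1 lymphocyte, 1 erythroid, 2 proliferation and 1 macrophage markers lower (limma). The erythroid genes Alas2 and Hba-a1 had -1.96 ± 0.35 and 0.83 ± 0.35 in liver, and the macrophage gene Adgre1 had 0.92 ± 0.28 and the lymphocyte gene Cd5 0.94 ± 0.45 in kidney. Their part in the ribosomal protein ratios was not tested.

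**Figure D4:**
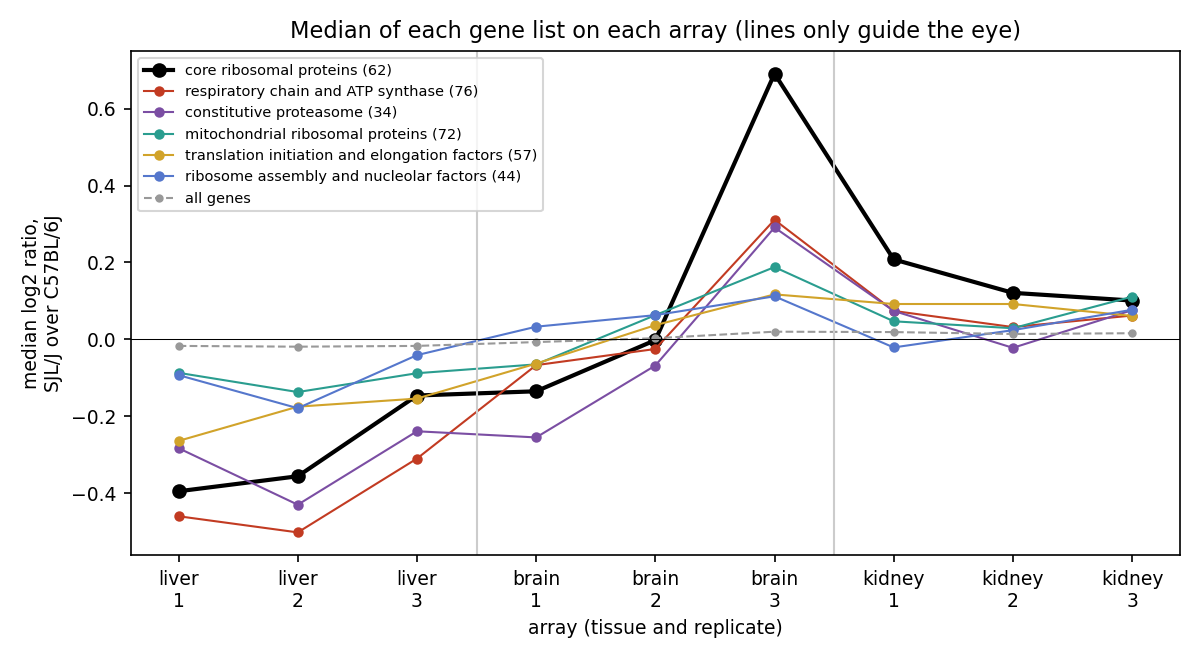
Median log2 ratio, SJL/J over C57BL/6J, of core ribosomal protein genes, of 5 other gene lists and of all genes on each of the 9 arrays, with lines only to guide the eye. The respiratory chain is the lowest list on each liver array, and the core ribosomal genes are the highest on brain replicate 3.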

How the data were processed

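The deposited table held 1 log2 ratio per spot and array, 23040 spots on 9 two-colour arrays with 0 missing values. Per the submitters' processing notes the authors used R 2.0.0 and limma. The base of 2 is limma's own and is not named in the labels. The 9 columns hold the same sorted values, so the authors had equalised the arrays before deposit. What else they did is not given in the sources used here. No spot intensities were used, so the stated precision comes from the arrays alone and covers neither mice nor dye effects of a probe. On kidney and liver arrays the Tissue label of channel 1 says brain, and the titles were followed. Probes were named through the platform annotation, and 79 of 81 member probes matched the RefSeq gene table, with 0 symbols changed.

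Probes of a gene were averaged (15096 genes) and fitted with limma 3.58.1 in R 4.3.3, 1 coefficient per tissue, 6 residual and 5.17 prior degrees of freedom, after a test on simulated data. Tests were two-sided, with Benjamini-Hochberg adjustment over all genes. Differences between tissues were contrasts of that fit. Members, lists and tests were chosen with earlier results of these data known. Members that passed in a tissue or contrast could be named, with array values for the 6 highest and 6 lowest in each tissue and those passing in several, the extremes of each subunit, paralogs with their parents, and up to 4 genes of a list by lowest p. Alternatives were scaling, probes kept, spatial medians, the unit of the fit, array weights, a replicate block, unshared spread and leaving out each array.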

Additional observations from a re-analysis of the deposited data

Results flagged for a closer look

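The following members had strain ratios that differed between tissues by the contrast itself (limma, Benjamini-Hochberg adjustment over all genes). Each is a difference of mean log2 ratios. With 3 arrays per tissue, single outlying arrays were not tested. For liver minus brain they were Rps20 at -1.19, Rpl27 at -1.08, Rps19bp1 at -0.84, Rpl29 at -0.80, Rpl13a at -0.78 and Rpl10a at -0.74. Of these, Rps20 and Rpl27 also passed without brain replicate 3. For liver minus kidney the lower members were Rplp1 at -1.26, Rpl27 at -1.21, Rpl6 at -1.04, Rps4x at -0.98, Rps20 at -0.94, Rpl3 at -0.90, Rpl11 at -0.86, Rpl21 at -0.79, Rpl27a at -0.77, Rplp0 at -0.74, Rpl7 at -0.68, Rps14 at -0.64 and Rps26 at -0.56. The higher members were Rpl39l at 1.11 and Rpl3l at 0.71. For brain minus kidney Rpl39l passed at 0.65.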

How the results depend on the processing

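The counts of members that passed moved with the spread the fit used more than with scaling. Leaving out probes at multiples of 8 left 59 members to test, and keeping RefSeq probes only left 54, so that fewer could pass. Liver (13) had 8 without probes at multiples of 8, 22 with array weights, 24 on its own arrays and 6 with medians of block positions removed. Brain (9) had 2 on its own arrays and 5 with RefSeq probes only. Kidney (13) had 6 without multiples of 8, 25 with weights and 26 on its own arrays. Liver minus kidney (15) had 7 with line and column medians removed and 29 with weights. Brain minus kidney (1) had 0 without multiples of 8 and with block positions removed, 2 with line and column medians removed and 6 with weights. Tissue dependence (17) had 9 with line and column medians removed, 11 with probes fitted singly and 29 with weights, and the shared ratio (0) had 1 with probes fitted singly. The mean over arrays of the member median became -0.16 for the large subunit in liver (-0.31) and 0.012 for the small subunit in kidney (0.09) with line and column medians removed. Leaving out 1 array gave 4 to 33 members in liver, 3 to 10 in brain, 3 to 25 in kidney, 2 to 22 for liver minus brain, 6 to 35 for liver minus kidney, 0 to 12 for brain minus kidney, 5 to 29 for tissue dependence and 0 for the shared ratio. The member medians then ranged from -0.38 to -0.25 (large) and -0.34 to -0.21 (small) in liver, -0.07 to 0.36 and -0.09 to 0.19 in brain, and 0.11 to 0.17 and 0.05 to 0.12 in kidney. The cause was not tested. The kidney ratio of Rps18 turned to 0.27 without multiples of 8 and with RefSeq probes only, both of which leave 1 probe, and that of Rpl34 to 0.12 with block positions removed. The RefSeq and block position settings were chosen after seeing the data. Same-numbered arrays of different tissues deviated together at r of -0.08 to 0.05, and differently numbered ones at -0.12 to 0.15. The labels do not state whether the numbers mark a shared day or slide, and these correlations cannot settle it. With the replicate block, liver minus brain had 12 members, liver minus kidney 16 and brain minus kidney 1. Of 57 single calls, 24 were kept with line and column medians removed and 49 with arrays centred on their median.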

Other observations

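Among the 62 core genes, few held the same place on every array. Rpl39, Rps18, Rpl34 and Rpl7 lay below the core median on all 9 arrays, Rps15, Rps28 and Rpl38 above it on all 9, and the other 55 changed side. Rpl39, Rpl34, Rpl7, Rps15 and Rpl38 were read only by probes at multiples of 8, and Rps18 by 1 such probe and 1 other, which averaged 0.26 in brain and 0.27 in kidney. Rps28, a small subunit protein, had log2 ratios of -0.11, 0.20 and 0.09 in liver, -0.04, 0.32 and 1.15 in brain and 0.47, 0.55 and 0.33 in kidney. Across the 62 core genes, the mean of brain replicates 1 and 2 correlated with the liver mean at r = 0.63 and with the kidney mean at 0.30, where the 15023 other genes gave 0.39 and 0.42. Brain replicate 3 correlated with the liver mean at 0.16 over core genes. These are descriptions across genes, which share probes, arrays and dye and are not independent replicates.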
